A study of Mus musculus with 6 samples.

Results

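The 8 genes described here mark peripheral nerve glia: *Pmp22*, *Mbp*, *Mag* and *Prx* for proteins of the myelin sheath, *Sox10* and *Egr2* for transcription factors of Schwann cells, and *S100b* and *Ngfr* for markers of these cells. They were chosen by name, and all 8 had a row among the 14016 rows of the table of injured quadriceps muscle. Muscle was taken 7 days after volumetric muscle loss, the surgical removal of a part of the muscle, from 3 WT mice and 3 mice labelled GATA-1 mutant, which the study names ΔdblGATA. None of these 6 mice received an implant, and the wound was filled with saline. The methods give female C57BL/6 mice for the WT strain. ΔdblGATA mice carry a germline deletion of a GATA site in a promoter of *Gata1* and lack eosinophils, and the deletion is not restricted to muscle or nerve.

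One value per gene was used, the authors' mean log2 CPM (CPM scales each count to the size of its library), and it is not separated by genotype or by mouse. The other columns of the table hold the study's own comparison of the genotypes, which was not used here, and values per mouse were not analysed here. No spread between mice, no depth per library and no genotype difference can therefore be given for any of the 8 genes, and their levels below are a description without a test. In bulk tissue, fewer cells of a type and less RNA per cell cannot be told apart. *Gata1*, the targeted gene, was not listed and gives no check of the genotypes.

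Schwann cells wrap the axons of motor and sensory nerves that run through muscle, and either form myelin around one large axon or enclose several small ones. SOX10 is needed throughout the Schwann cell lineage and, together with EGR2, switches on the genes of myelin. After nerve injury Schwann cells can lose their myelin program, express the neurotrophin receptor p75 (*Ngfr*) again and take part in repair, a state that depends on the transcription factor JUN. Most of these genes are not exclusive to glia. *Pmp22* is also expressed by fibroblasts and many other cells that have stopped dividing, *Egr2* by activated immune cells, and *S100b* by some adipocytes.

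The sequences upstream of the members are shown because EGR2 and SOX10 are themselves members and act on promoters of myelin genes. RefSeq windows (GRCm38.p6) were found for 6 of the 8 genes, with 15 start sites in all, and for *Sox10* and *Mbp* none was matched. Printed are the 250 bases before the start site of the 3 genes with a single window, 5′ to 3′ on the strand of the gene. Capitals mark matches to GTGGGNG, a core of the EGR motif, or to ACAAAG or ACAATG, cores of the SOX motif, on either strand.
Prx (chr7:27499074-27499323, + strand): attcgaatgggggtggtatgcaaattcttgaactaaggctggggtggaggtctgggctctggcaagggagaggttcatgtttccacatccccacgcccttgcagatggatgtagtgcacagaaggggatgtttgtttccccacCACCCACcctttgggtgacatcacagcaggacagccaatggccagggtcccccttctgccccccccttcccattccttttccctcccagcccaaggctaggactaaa
S100b (chr10:76253586-76253835, + strand): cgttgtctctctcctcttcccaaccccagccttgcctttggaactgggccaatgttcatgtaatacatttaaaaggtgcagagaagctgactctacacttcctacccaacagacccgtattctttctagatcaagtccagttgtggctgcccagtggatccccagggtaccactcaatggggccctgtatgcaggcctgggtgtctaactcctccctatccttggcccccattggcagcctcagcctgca
Ngfr (chr11:95587699-95587948, − strand): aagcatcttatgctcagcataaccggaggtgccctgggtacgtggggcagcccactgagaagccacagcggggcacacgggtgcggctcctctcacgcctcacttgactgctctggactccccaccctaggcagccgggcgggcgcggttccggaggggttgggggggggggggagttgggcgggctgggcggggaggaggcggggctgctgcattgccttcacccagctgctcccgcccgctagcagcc

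The *Prx* window held 1 match to the EGR letters, starting 107 bases before the start site, and no match to the SOX letters. The windows of *S100b* and *Ngfr* held neither. Over the 15 windows, 3 held the EGR letters, 1 each for *Prx*, *Mag* and *Egr2*, and 2 held the SOX letters, both for *Mag* in windows that overlap. Among all 32851 windows of the same length, 28.1% held the EGR letters and 25.2% the SOX letters. None of the 4 windows of *Pmp22* held either. A match is a description of letters, and a window without one says nothing of the factor, since known control regions of these genes lie also in introns and farther upstream.

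The levels of the 8 genes spanned a wide range with *Pmp22* at the top and *Sox10* at the bottom. Over all genes listed the mean log2 CPM ran from -4.08 to 15.03 with a median of 4.03, and 1 of the 8 members lay above that median. To compare genes with each other, the log2 of the length of the longest coding transcript in kb was subtracted from the mean log2 CPM. On this scale per kb *Pmp22* lay 6.35 above *Sox10*, an 81.5-fold difference that was between 53.4-fold and 114-fold with the median or shortest coding transcript or without length scaling. The members' median of 0.44 per kb compared with 2.28 over all 13938 genes with a known length.

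**Figure D1:**
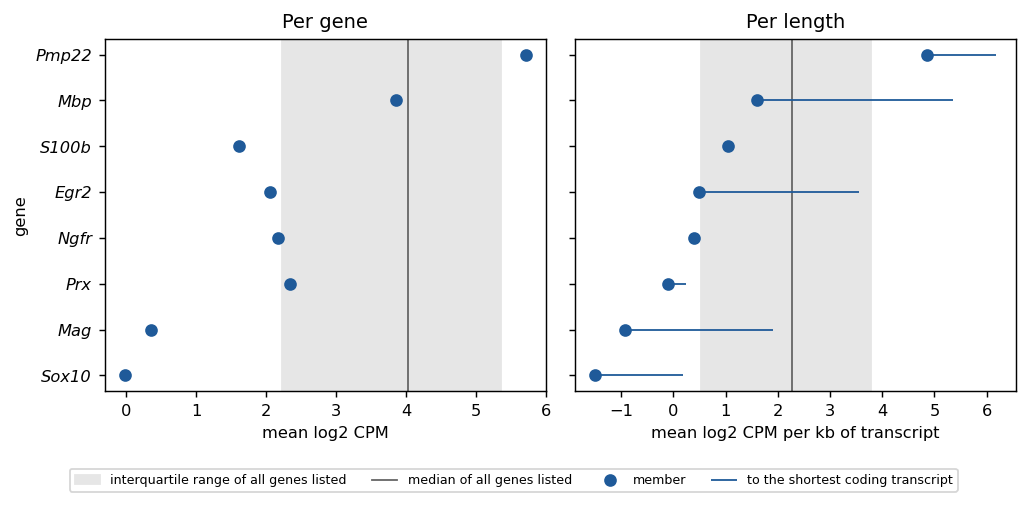
The authors' mean log2 CPM of each of the 8 genes (left) and the same per kb of the longest coding transcript (right), with the median and interquartile range of all genes listed as a line and a grey band; the horizontal lines on the right run to the value for the shortest coding transcript. *Pmp22* lies above both bands, at 5.71 and 4.85, and *Sox10* is lowest on both scales, at -0.03 and -1.50.

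*Pmp22*, a membrane protein of compact myelin whose gene dosage causes hereditary neuropathy, had a mean log2 CPM of 5.71, which corresponds to a geometric mean of 52.5 CPM. This level was at or above that of 80.5% of the genes listed. Per kb of its 1822 nt transcript it stood at 4.85, at or above 87.0% of the genes with a length. *Pmp22* was the one member above the interquartile range of all genes on both scales.
*Mbp*, which encodes the basic proteins that join the cytoplasmic faces of compact myelin, had a mean log2 CPM of 3.86 and a geometric mean of 14.5 CPM. Its level was at or above 46.9% of the genes listed, close to the middle of the table. Its longest coding transcript of 4797 nt put it at 1.60 per kb, 9.50-fold below *Pmp22*, a fold that fell to 3.61 without length scaling, 5.51 with median lengths and 1.77 with the shortest transcripts. The gene has 14 annotated coding transcripts, of which the longer forms, known as golli, are also made by immune cells and neurons. The sum over transcripts does not tell these forms apart. The level per kb would be 2.91 with the median length of 1934.5 nt and 5.36 with the shortest annotated coding transcript of 354 nt. Whether that annotation is a complete transcript was not checked.

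*Mag*, an adhesion molecule on the Schwann cell membrane facing the axon, had a mean log2 CPM of 0.35 and a geometric mean of 1.27 CPM. It was at or above 10.7% of the genes listed, and its level of -0.94 per kb was 55.1-fold below that of *Pmp22*. This fold was 41.2 without length scaling, 62.4 with median lengths and 19.3 with the shortest transcripts.
*Prx* encodes periaxin, which links the outer myelin membrane through DRP2 to dystroglycan and the basal lamina. Its mean log2 CPM was 2.34, a geometric mean of 5.07 CPM, at or above 26.1% of the genes listed. It has the longest transcript of the 8, 5433 nt, and stood at -0.10 per kb. Of its 31-base words 3.53% also occur in the gene model Gm15541, so that a small part of its reads could be assigned to either gene. The share was lower in the other members. It was 1.29% for *Ngfr*, over transcripts of 3477 other genes, and 1.13% for *Mbp*, over 682.

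The transcription factor genes stood in the lower part of the table by mean log2 CPM. *Sox10* had a mean log2 CPM of -0.03, the lowest of the members, and a geometric mean of 0.982 CPM. The authors required a CPM above 1 in 3 or more samples for a gene to be listed, and the mean of *Sox10* lay close to that line. Of all genes listed, 8.55% had a mean below 1 CPM. Per kb *Sox10* stood at -1.50. By mean log2 CPM *Sox10* ranked 12845 from the top of the 14016 rows, and genes with lower means were listed too, such as *Gfap* at -2.89. The mean alone does not show how such genes met the stated filter, or in which mice *Sox10* passed it.
*Egr2*, also known as Krox20, had a mean log2 CPM of 2.06, a geometric mean of 4.17 CPM, and stood at 0.49 per kb. Its level per kb was 3.98-fold above that of *Sox10*, and this fold was 4.25 without length scaling, 12.8 with median lengths and 10.3 with the shortest transcripts. With the median length of its 7 coding transcripts it would stand at 2.21 per kb, above *S100b*.

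*S100b*, a calcium-binding protein used to stain Schwann cells, had a mean log2 CPM of 1.61 and a geometric mean of 3.05 CPM. Per kb it stood at 1.04, the third of the 8, because its transcript of 1484 nt is the shortest of the members. Among the 10 listed genes of the S100 family it ranked 9 by level per kb, above *S100a9* at 0.45 and below *S100a8* at 1.57. Without length scaling *S100b* lay above *S100a8*, which had a mean log2 CPM of 0.52.
*Ngfr* had a mean log2 CPM of 2.17, a geometric mean of 4.51 CPM, and stood at 0.39 per kb. Per kb *S100b* was above *Ngfr*, and without length scaling it was below. The order of neighbours from *S100b* through *Egr2* and *Ngfr* to *Prx*, which span 1.04 to -0.10 per kb, could not be set against the spread between mice.

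The wider set of genes around these members was taken from 9 lists of 76 genes, the 8 members included, of which 67 were listed in the table and 24 stood above the median of all genes per kb. In compact myelin all 7 genes were listed, from *Pmp22* down to *Cldn19*, a claudin of Schwann cell tight junctions, at -2.74 per kb. *Mbp* was the second highest of the list at 1.60 per kb.
In the list of non-compact myelin, adhesion and gap junctions all 9 genes were listed. It ran from *Cd59a*, a complement inhibitor of many cell types, at 4.03 per kb to *Gjb1*, the gap junction protein connexin 32, at -3.30, and *Mag* had a higher level per kb than 5 of the other 8 genes.
All 6 genes of the periaxin and dystroglycan scaffold were listed, and *Prx* was the lowest of them. *Dag1*, which encodes dystroglycan and is also a component of the muscle fibre membrane, was the highest at 5.70 per kb.

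**Figure D2:**
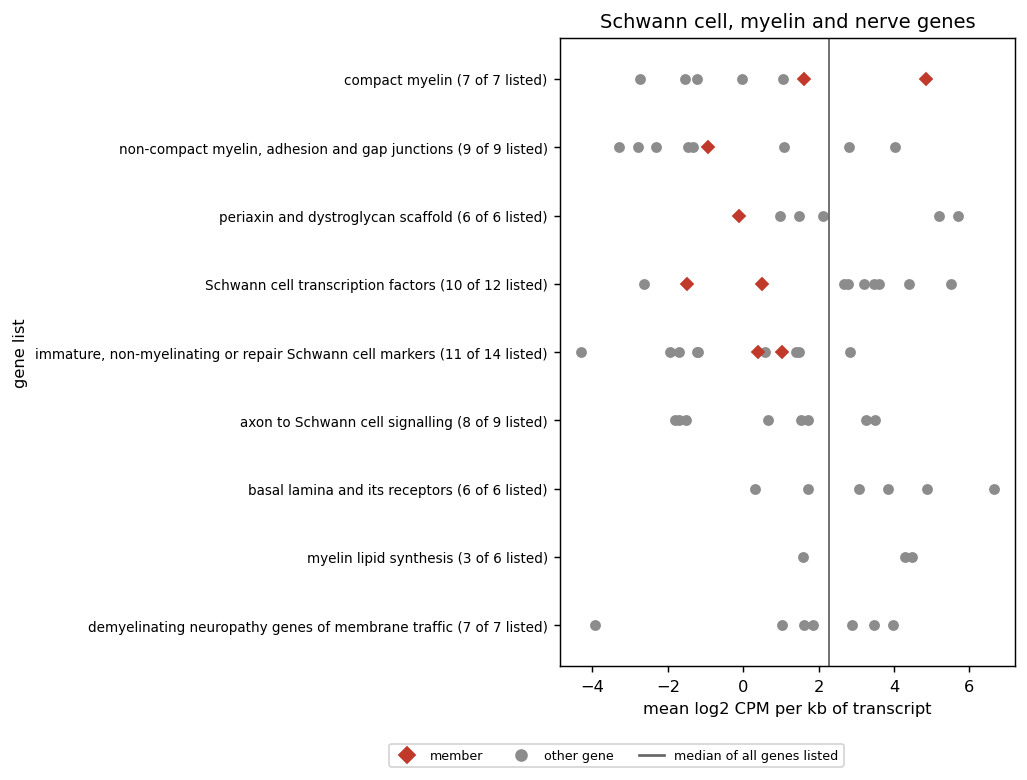
Mean log2 CPM per kb of the longest coding transcript for every listed gene of 9 lists around Schwann cells and myelin, with the 8 members as red diamonds, the other genes as grey circles and the median of all genes listed as a line. Of the members, *Pmp22* at 4.85 is the one to the right of the line, which stands at 2.28.

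Of 12 Schwann cell transcription factor genes 10 were listed, and *Pou3f2* and *Sox2* were not listed. *Jun*, a factor of the repair state and of many other cells, was the highest at 5.52 per kb, and *Pou3f1*, the factor Oct6 of promyelinating cells, the lowest at -2.64. *Sox10* and *Egr2* lay between *Pou3f1* and the remaining 7 listed genes, each of which is widely expressed outside glia.
Among 14 markers of immature, non-myelinating or repair Schwann cells 11 were listed and *Shh*, *Olig1* and *Fabp7* were not listed. They ran from *Ncam1*, an adhesion molecule that regenerating and denervated muscle fibres express as well, at 2.83 per kb to *Gfap*, an intermediate filament of glia, at -4.30. *Cdh19*, a cadherin of Schwann cell precursors, stood at -1.71.

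In signalling between axon and Schwann cell, 8 of 9 genes were listed, one of them, *Adgrg6*, under its older symbol *Gpr126*, and *Nrg1*, the neuregulin that axons present, was not listed. The highest was *Bace1*, a protease that can cleave neuregulin, at 3.49 per kb, and the lowest *Adgrg6*, a receptor needed for myelination, at -1.81. *Erbb3*, the neuregulin receptor of Schwann cells, stood at 1.52 per kb.
The 6 genes of the basal lamina and its receptors were listed, from *Itgb1* at 6.66 per kb to *Itgb4*, the integrin chain of mature Schwann cells, at 0.32. In the synthesis of myelin lipids 3 of 6 genes were listed. *Scd2*, a desaturase, was the highest at 4.47, and *Ugt8a*, *Gal3st1* and *Fa2h*, the enzymes for galactolipids of myelin, were not listed. All 7 neuropathy genes of membrane traffic were listed, from *Litaf* at 3.98 to *Sh3tc2*, the one whose expression is largely limited to Schwann cells, at -3.92.

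The members were set beside markers of other cell types, as a description and not a test of the label. The 8 members were listed, as were *Erbb3* and *Cdh19*, while *Shh*, *Olig1*, *Fabp7*, *Pou3f2*, *Sox2*, *Ugt8a*, *Gal3st1* and *Fa2h* of the Schwann cell and myelin lists above were not, and neither was *Nrg1*. Most of the members, *Pmp22*, *Egr2* and *S100b* among them, are not exclusive to glia, so listing does not by itself mark Schwann cells. Which cells the *Erbb3* transcripts came from was not tested. The 4 oligodendrocyte markers *Mog*, *Mobp*, *Opalin* and *Olig2*, which mark myelin of the central nervous system, were not listed. Quadriceps muscle holds no part of that system, so their absence is no check of the label. Of 7 neuron markers *Uchl1* at 3.32 per kb and *Tubb3* at 0.47 were listed, and *Nefl*, *Nefm*, *Nefh*, *Snap25* and *Chat* were not. Whether axons or their signals to Schwann cells were present was not tested, and the unlisted *Nrg1* does not show it. Among 5 melanocyte markers, cells that share SOX10 with Schwann cells, *Mitf* was listed and *Tyr*, *Dct*, *Mlana* and *Pmel* were not. Of 4 genes for the perineurium 3 were listed, from *Tjp1* at 2.47 per kb to *Cldn1* at -0.43, and *Lypd2* was not listed. Which cells the transcripts of these 3 genes came from was not tested.
All 6 muscle fibre genes were listed, and each stood above *Pmp22* per kb. They ran from *Ttn* at 5.92 per kb to *Acta1* at 13.77, the latter 486-fold above *Pmp22*. The 3 adipocyte markers were listed with *Fabp4* the highest at 9.30 per kb, and *Plin1* at -0.63 the lowest. Fibroblast markers ran from 2.95 for *Pdgfra* to 9.10 for *Col1a1*. Endothelial markers ran from 3.07 to 4.63 for *Pecam1*, and macrophage markers from 3.01 to 4.75 for *Cd68*. The part of fibroblasts in the level of *Pmp22*, of adipocytes in that of *S100b* and of macrophages in that of *Egr2* was not tested.

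**Figure D3:**
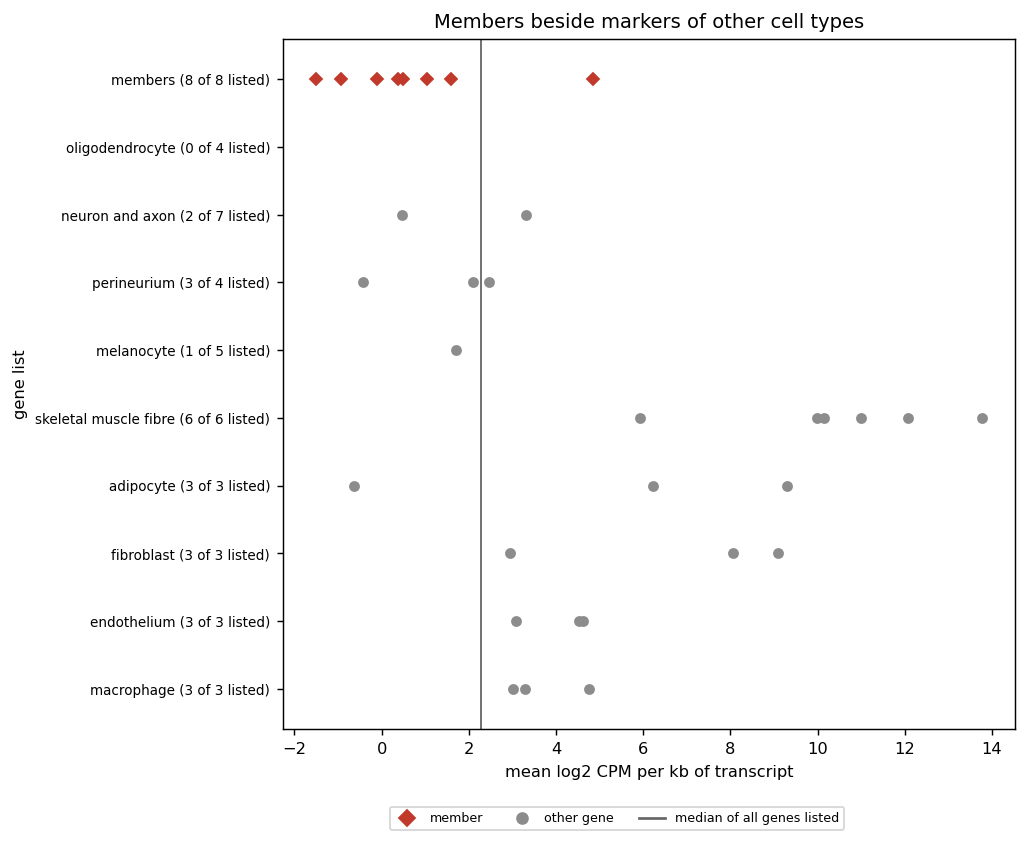
Mean log2 CPM per kb of the longest coding transcript for the 8 members (red diamonds, top) and for markers of 9 other cell types (grey circles), with the median of all genes listed as a line. Skeletal muscle fibre genes reach 13.77, and 0 of 4 oligodendrocyte markers are listed.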

How the data were processed

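Polyadenylated RNA of injured quadriceps muscle was sequenced from 3 WT and 3 ΔdblGATA mice. The log2 values are, per the study's methods, CPM that the authors derived with kallisto and edgeR, filtered to genes whose CPM exceeded 1 in 3 or more samples, put on a log scale, TMM-normalized and fitted with limma. The deposited column used is the mean of these log2 values over the samples of that fit, taken to be the 6 mice, which the table does not state. GRCm39 (mm39) is the build in the submitters' processing notes, and the transcript index is not given in the sources used here. The remaining columns, which hold the authors' log2 fold change of the genotypes, moderated t, p-values before and after adjustment and log-odds, were not used. The planned limma fit needed values per mouse, and the column used holds only a mean, so the fit was not run. The depth per sample is unknown.

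Gene symbols were looked up in GENCODE M21 (GRCm38), where 13458 were found as written and 480 under an older symbol. Lengths are those of the longest coding transcript (the longest transcript where none is coding). Of the rows, 1 has no symbol. Sharing was measured as the percent of 31-base words of that transcript found on either strand of another gene's transcripts. Members and lists were chosen with earlier results of these data known. Named were every member, the highest, the lowest and the unlisted genes of each list, and Schwann cell markers, with *S100a8*, *S100a9* and genes beside a named ratio chosen after their values were seen. Some genes of the lists are not reported here by name. Calculations (Python 3.11.15, pandas 2.3.3) were tested on simulated data. The alternatives were minimum levels, other transcript lengths, no length scaling and protein-coding genes as the background.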

Additional observations from a re-analysis of the deposited data

How the results depend on the processing

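No paired analysis was possible because the values used hold no sample. For the same reason the alternatives planned for a genotype difference (limma without a mean trend, other pseudocounts, a filter, leaving out each mouse) were not run. With a minimum mean log2 CPM of 1, 6 of the 8 members and 50 of the 67 listed genes of the 9 lists were left, and with a minimum of 3, 2 members were left, *Pmp22* and *Mbp*. For the scale over all genes listed, *Gap43* at a mean log2 CPM of 1.08 was at or above 15.6% of them. *Itgb4* at 2.95 was at or above 32.9%. Of the 28 pairs of members, 27 kept their order with the median coding transcript length, 24 with the shortest coding transcript and 22 without length scaling. The percentile of each member moved by less than 10 points against protein-coding genes alone. Per kb it did so for 7 members and not for *S100b*, which went from 19.8 to 30.4. No spread between mice was at hand to set these shifts against.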
